A study of Homo sapiens with 16 samples.

Results

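Ribosome footprints were compared between MDA-MB-231 cells in which 2 isoleucine tRNAs were modulated together and control cells of the same line. MDA-MB-231 is an established human triple-negative breast cancer line, and a footprint (ribosome-protected fragment) is the piece of mRNA that a translating ribosome shields from nuclease. In the double modulation, CRISPR interference (CRISPRi, a guide RNA that brings a transcriptional repressor to a gene) was directed at tRNA-Ile-GAU and the cells carried a tRNA-Ile-UAU overexpression construct. In the control, CRISPRi was directed at eGFP and the cells carried a control construct, so both groups hold a CRISPRi system and a construct. The 4 libraries compared (2 of each group) are part of 8 footprint libraries and of 16 libraries in the series. The other groups used here are tRNA-Ile-GAU CRISPRi with the control construct (knockdown alone), eGFP CRISPRi with the tRNA-Ile-UAU construct (construct alone) and total RNA libraries of the double modulation and the control. All cells grew without treatment. The design text names ribosome occupancy of transcripts rich in isoleucine codons as the question, and codon content and tRNA levels were not analysed here. The labels give neither clones nor pooling and do not say that the replicates are separate cultures. Each p-value reflects the spread between the 2 libraries within each group, estimated over all groups in the fit and partly from other genes. It is thus not a gene's own spread in the 2 compared groups alone, and that spread may be purely technical.

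Isoleucine is written by 3 codons. By standard anticodon pairing, a UAU anticodon reads AUA and a GAU anticodon reads AUC and AUU. How many footprints a gene gives depends on how much of its mRNA the cells hold and on how many ribosomes sit on each copy, and a change in either moves the footprint count. In bulk cultures, a change in every cell and a change in the share of cells that express a gene cannot be told apart.

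The footprints of 157 of 8143 tested genes differed between the double modulation and the control (1.93% of tested genes, adjusted p under 0.05). Of these, 43 rose (0.528%) and 114 fell (1.4%) in the double modulation. Chromosome 7 held 44 of the fallen genes, which is 11.9% of its 371 tested genes, and 0 of the risen ones. The other chromosomes held 70 fallen genes (0.901% of 7772) and 43 risen ones (0.553%). In 156 of the 157 genes both libraries of the double modulation lay on the same side of both control libraries. The genes were called on these same libraries, so here and below such a separation is a description and no further support. Its share over all tested genes was not counted. The 1 changed gene without this separation was PODNL1, a secreted leucine-rich repeat protein of the matrix. It had 76.0 and 279.7 CPM (counts scaled to a common library size) in the double modulation against 75.8 and 109 CPM in the control. Its call came from replicate 2 of the double modulation, and without that library its log2 fold change was -0.27.

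The changed genes were sorted into 15 functions after they had been seen, and 3 (C19orf33, VSTM2L and CRIP2) were left without one. Lipid and sterol metabolism (11 genes), histones (13) and endoplasmic reticulum, Golgi and membrane traffic (13) held fallen genes and no risen one. Of 16 changed genes of cell adhesion and the cell surface 13 fell, and of 15 receptors, ligands and signalling genes 12 fell. The functions with the most risen genes were transcription and chromatin regulation (8 of its 11 changed genes), cytoskeleton, motors and cilia (7 of 14) and translation (5 of 9), and the other risen genes were spread over further functions. Chromosome 7 supplied 9 of the 13 fallen genes of endoplasmic reticulum, Golgi and traffic and 7 of the 8 fallen genes of folding, turnover and lysosome, but 1 of the 11 lipid genes and 0 of the 13 histone genes. The counts given below for gene lists, which do not hold every changed gene, stand beside 1.4% fallen and 0.528% risen over all tested genes.

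**Figure D1:**
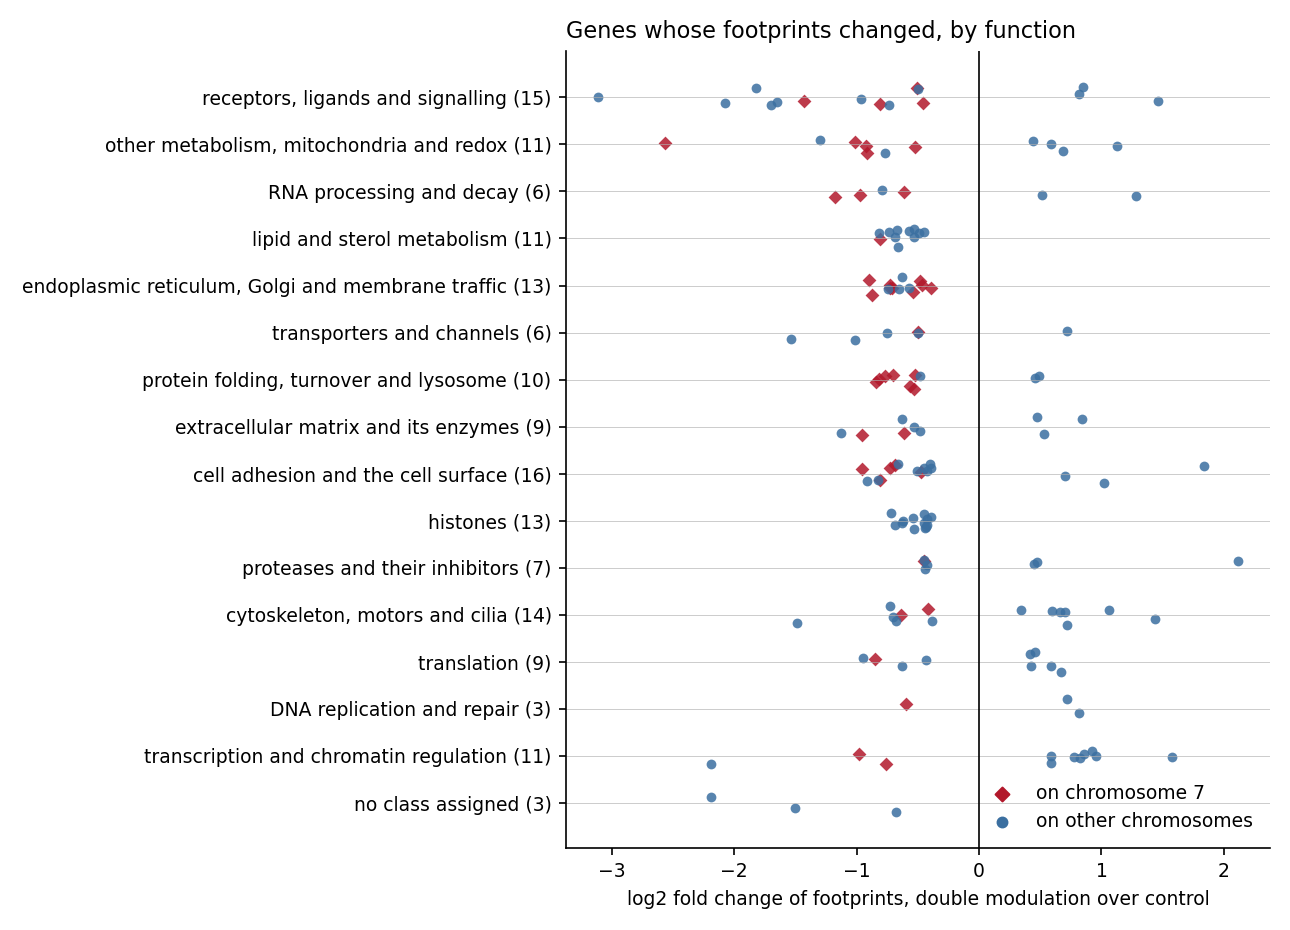
Log2 fold change of footprints, double modulation over control, for each of the 157 changed genes, by function (number of genes in brackets). Diamonds are genes on chromosome 7 and circles genes on other chromosomes. All 44 diamonds lie below 0, while the circles lie on both sides, 70 below 0 and 43 above.

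These libraries held 938909 and 639320 counts on genes in the double modulation, against 607919 and 605973 in the control. At this depth 1 read was worth 1.07 to 1.70 CPM, and 97.0 to 98.3% of what the files tally had been set aside as multi-mapped. The line's mesenchymal markers were abundant (all 8 tested, summing to 19819 and 20565 CPM in the double modulation against 21091 and 21870 CPM in the control), and 2 of them, S100A4 and CAV1, fell. Among 10 luminal epithelial markers ESR1 and CDH1 were at 0 in all 4 libraries, CLDN7 rose, CLDN4 fell and the list summed to 1212 and 1325 CPM against 1167 and 1277 CPM. Basal, endothelial and fibroblast markers summed to at most 27.8 CPM in any of these libraries, and the 5 immune markers to 133 to 176 CPM, nearly all of it CD68, with CD3E and LYZ at 0. Their part in the results was not tested.

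Lipid and sterol genes fell together. In animal cells SREBF1 encodes a transcription factor (SREBP1) that switches on fatty acid synthesis and, with its relative SREBP2, cholesterol synthesis, while INSIG1 holds these factors in the endoplasmic reticulum when sterol is plentiful. FASN, the fatty acid synthase, had 1558 and 1563 CPM in the double modulation, against 2287 and 2650.4 CPM in the control. Both modulated libraries lay far below both controls, and the log2 fold change was -0.66 ± 0.10, adjusted p = 7.73e-07. SCD, the desaturase that makes oleic acid, had 952 and 745 CPM against 1332 and 1419 CPM (-0.69 ± 0.11, adjusted p = 2.77e-06). For SCD too, the groups were well apart. INSIG1 itself, the lipid gene on chromosome 7, had 154 and 97.5 CPM in the double modulation, against 227 and 227 CPM in the control (-0.81 ± 0.16, adjusted p = 0.000727). Its modulated libraries differed from each other more than the controls did, and both lay below them.

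Other fallen lipid genes cover regulation, desaturation and export. SREBF1 had 366 and 368 CPM in the double modulation, against 509 and 553 CPM in the control, and the groups did not overlap. The fatty acid desaturases FADS1 and FADS2, the last enzyme of cholesterol synthesis DHCR7, the phospholipid remodelling enzyme LPCAT3 and the cholesterol exporter ABCA1 fell as well, with log2 fold changes from -0.82 (LPCAT3) to -0.45 (FADS1). Among the wider pathway, 5 of 27 tested genes of cholesterol synthesis and uptake fell and 0 rose. That list's median log2 fold change was -0.38 with 24 of 27 members below 0, against 0.01 over all tested genes. The members that did not pass included CYP51A1 (-0.74 ± 0.23) on chromosome 7, HMGCS1 (-0.42 ± 0.22), and INSIG2, the relative of INSIG1, with a positive value (0.46 ± 0.35). Of 34 genes of fatty acid and lipid metabolism 5 fell and 0 rose, and the median of the 34 was -0.07. The 5 were FASN, SCD, FADS1, FADS2 and PON2, and PON2 lies on chromosome 7 and is counted below with other metabolic genes. ACLY (-0.16 ± 0.11) and ACACA (-0.07 ± 0.15), the enzymes that feed FASN with acetyl and malonyl groups, did not pass.

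Total RNA values of the lipid genes lay nearer 0. Their median log2 fold change in total RNA was -0.16, with 10 of 11 below 0, against -0.66 in footprints. FASN RNA had 387 and 198 CPM in the double modulation, against 299 and 293 CPM in the control (-0.01 ± 0.26, SE, n = 2 each). SREBF1 RNA had 83.2 and 41.1 CPM in the double modulation, against 61.4 and 67.8 CPM in the control (-0.04 ± 0.29). In both genes 1 RNA library of the double modulation lay above both controls and the other below both, so these means near 0 rest on libraries that differ widely. INSIG1 and ABCA1 had RNA differences near those of their footprints, at -0.75 ± 0.11 and -0.67 ± 0.12. None of the 11 passed in total RNA, and the difference between footprints and RNA, a translational efficiency contrast, had a median of -0.46 and passed for none of them. With single libraries left out, 5 to 10 of the 11 lipid genes passed in footprints, 8 passed by DESeq2, and FASN and SCD passed without any 1 library. In the arms that share these controls, FASN had 2580.0 and 2475 CPM in the knockdown alone and 2072 and 2037 CPM with the construct alone, and INSIG1 had 205 and 234 CPM and 114 and 159 CPM. The double modulation gave the lowest mean of the 4 conditions for both genes, but its INSIG1 libraries overlapped those of the construct alone.

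Footprints of 13 histone genes fell. Histones package DNA into nucleosomes (H2A, H2B, H3 and H4) and link them (H1), and most of their genes sit in clusters on chromosome 6 and are read out in S phase as mRNAs without a poly(A) tail. Of the 13 that fell, 11 are on chromosome 6: 6 H2B genes, 3 H4 genes and 2 H1 genes. HIST2H3D, a clustered H3 gene on chromosome 1, and H3F3B, a replication-independent H3.3 gene on chromosome 17, fell too. HIST1H1C, a linker histone, had 2554 and 2562 CPM in the double modulation against 3105 and 3603 CPM in the control (-0.39 ± 0.10, adjusted p = 0.0116). HIST1H4C had 763 and 668 CPM against 1012 and 1070.0 CPM (-0.54 ± 0.11, adjusted p = 0.000909). In both genes the 2 modulated libraries lay below the 2 controls by more than the replicates differed. HIST1H1E had 2231 and 2296 CPM against 2849 and 3339 CPM, HIST1H4B 836 and 794 CPM against 1099.6 and 1129 CPM, and H3F3B 201 and 153 CPM against 236 and 319 CPM. The 13 log2 fold changes ran from -0.72 (HIST1H2BN) to -0.39 (HIST1H1C), a range limited by the call itself, since only genes that passed are counted. Over the tested genes of the histone list the values ran from -1.69 ± 0.63 (HIST1H1D) to 0.24 ± 0.13 (H1F0), and neither of these passed.

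The promoters of the H2B genes were searched for 3 short elements that are known from histone genes: the octamer ATTTGCAT, which binds the factor OCT1, the TATA box (searched as TATAAA) and the CCAAT box (searched as CCAAT). Stretches of 4 of the 6 fallen H2B genes are shown as examples (HIST1H2BN and HIST1H2BO are not printed). The stretches are the 90 bases just before the annotated start in RefSeq (GRCh38.p14), 5′ to 3′ on the gene's strand, with matches in capitals, which do not overlap each other here.
HIST1H2BJ: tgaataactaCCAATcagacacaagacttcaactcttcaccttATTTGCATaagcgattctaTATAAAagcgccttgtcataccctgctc
HIST1H2BK: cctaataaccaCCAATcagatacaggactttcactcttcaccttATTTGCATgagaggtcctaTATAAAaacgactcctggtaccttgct
HIST1H2BM: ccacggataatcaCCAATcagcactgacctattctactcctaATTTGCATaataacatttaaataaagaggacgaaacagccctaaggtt
HIST1H2BD: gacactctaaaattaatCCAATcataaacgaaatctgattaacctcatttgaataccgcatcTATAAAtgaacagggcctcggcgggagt
These stretches lie at chr6:27132796-27132885 (minus strand), chr6:27146859-27146948 (minus strand), chr6:27814932-27815021 (plus strand) and chr6:26158031-26158120 (plus strand), in that order. The octamer begins 46 to 48 bases before the start in HIST1H2BJ, HIST1H2BK and HIST1H2BM and has no match in the stretch of HIST1H2BD, while TATAAA has none in that of HIST1H2BM and CCAAT matches in all 4. The footprints of HIST1H2BD changed by -0.43 ± 0.12 on the log2 scale and those of HIST1H2BJ by -0.42 ± 0.12. In promoters of 300 bases (250 before and 50 after the start, both strands), the octamer occurs in 5 of the 12 matched fallen histone genes, in 4 of 11 matched histone genes that were tested as members of the histone list and did not pass, and in 1.77% of all 35116 promoters. TATAAA occurs in 9 of the 12 fallen, 9 of the 11 that did not pass and 11.5% of all, and CCAAT in 10 of the 12, 10 of the 11 and 34.6% of all. Of the 6 fallen H2B genes, 4 have the octamer in these 300 bases, 5 have TATAAA and 6 have CCAAT. HIST1H2BN, which had the lowest log2 fold change of the histone genes that passed, has neither the octamer nor TATAAA there. The shares in histone genes that did not pass lay close to those in the genes that fell. Some of the genes that fell are outside the histone list, while those that did not pass come from the list alone. A match is a description of the letters and was not tested for binding.

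The histone calls depended on single libraries: of the 13 genes, 11 passed without replicate 1 of the double modulation, 4 without its replicate 2, 5 without replicate 1 of the control and 0 without its replicate 2. HIST1H2BK and HIST1H2BM did not pass with any single library left out. Of 21 tested genes of the histone list 8 fell and 0 rose, with a median of -0.39 and 18 of 21 below 0. The list lacks the fallen genes HIST1H2BJ, HIST1H2BN, HIST1H2BM, HIST1H2BO and HIST2H3D, so it does not count all tested histone genes. HIST1H3B (-0.09 ± 0.10), HIST1H2AG (-0.05 ± 0.12) and H2AFZ (-0.00 ± 0.15) did not pass, and H1F0 and H2AFY had values above 0 (0.24 ± 0.13 and 0.20 ± 0.14) that did not pass either. Total RNA of the 12 that could be tested was below 0 in 12, with a median of -0.36 and no call, and HIST1H4C had a mean of 4.44 CPM in the double modulation and 6.07 CPM in the control there. Histone genes share near-identical sequence, and reads tallied as multi-mapped were set aside. Near-identical copies can lose reads in this way, so the level of each copy is uncertain.

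**Figure D2:**
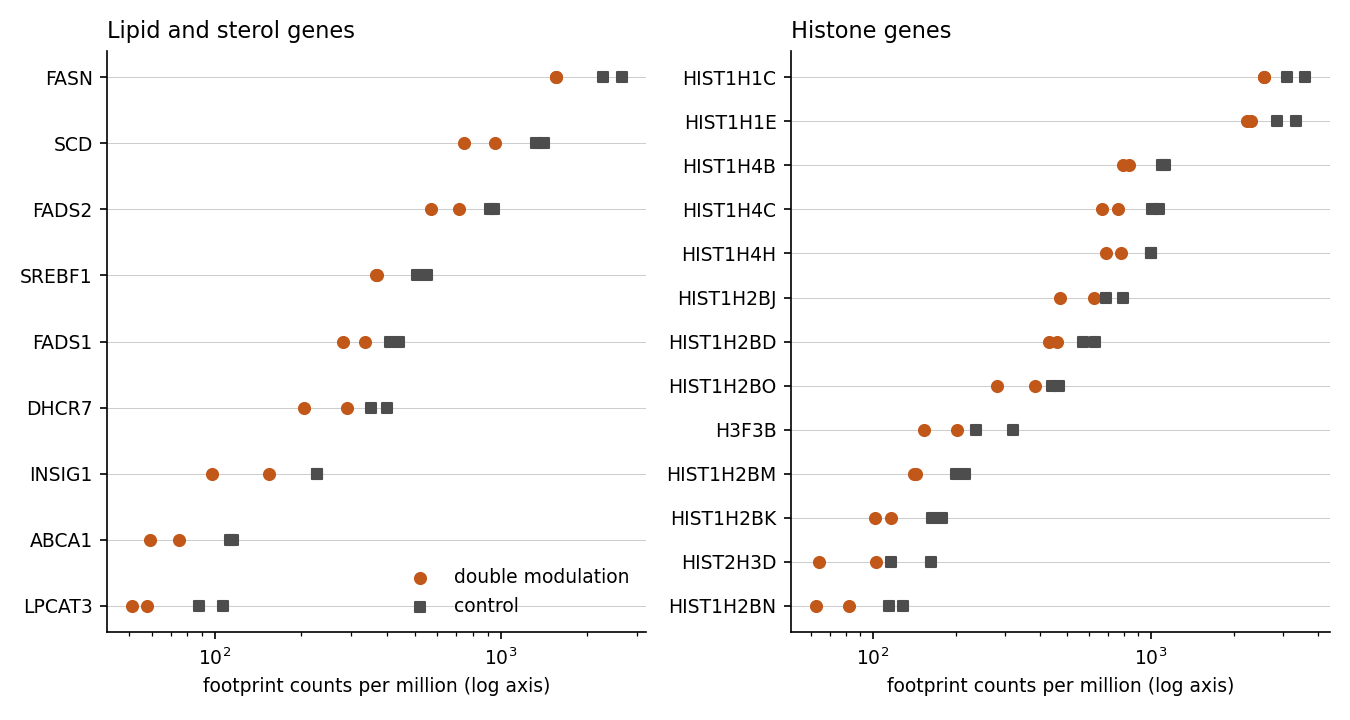
Footprint level in CPM (log axis) of 9 of the 11 lipid and sterol genes and of the 13 histone genes that fell, in each of the 2 double modulation libraries (circles) and the 2 control libraries (squares). In every one of the genes drawn both circles lie left of both squares, and the genes were called on these same libraries.

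Of the 16 changed genes of the cell surface and adhesion 13 fell, 5 of them on chromosome 7. ITGB4, the integrin beta 4 of hemidesmosomes (chromosome 17), had 349 and 376 CPM in the double modulation, against 643 and 636 CPM in the control (-0.82 ± 0.12, adjusted p = 3.98e-07). PODXL, the anti-adhesive sialomucin podocalyxin (chromosome 7), had 380.0 and 399.5 CPM against 672 and 688 CPM (-0.81 ± 0.12, adjusted p = 3.98e-07). CLDN4, a tight junction claudin on chromosome 7, had 67.4 and 81.5 CPM against 155 and 131 CPM (-0.96 ± 0.19, adjusted p = 0.000685). In all 3 the modulated libraries lay close together and well below the controls. The largest rise of the group was that of CDH11, a cadherin of mesenchymal cells on chromosome 16, with 73.9 and 71.9 CPM in the double modulation and 20.2 and 20.3 CPM in the control (1.84 ± 0.30, adjusted p = 3.29e-06). CDH11 was one of the few genes that also passed in total RNA (2.03 ± 0.16). Footprints of the knockdown alone, against the same controls, gave log2 fold changes of -0.82 (ITGB4), -0.46 (PODXL), -0.85 (CLDN4) and 2.24 (CDH11). With the construct alone they lay between -0.20 (PODXL) and 0.19 (ITGB4 and CLDN4). The other fallen genes were the heparan sulfate proteoglycan SDC2, the focal adhesion proteins TES and TNS3, the adhesion molecule L1CAM, the caveolar proteins CAV1 and PRKCDBP, the dystroglycan gene DAG1, the tetraspanins CD9 and CD151, and BSG, a chaperone of lactate transporters, with log2 fold changes from -0.92 (SDC2) to -0.40 (CD9). The claudin CLDN7 and APBB1IP, an adaptor of integrin activation, rose (1.02 ± 0.29 and 0.71 ± 0.21). Of 36 tested genes of integrins and focal adhesion 6 fell and 0 rose, with a median of -0.10, against 1.4% fallen and 0.528% risen over all tested genes. The 6 include CRIP2, which was left without a function above. Of 26 tested genes of cadherins and cell junctions 2 fell and 2 rose, with a median of 0.04 and 14 above 0. Of the 16 changed genes of the group, 5 to 10 passed with single libraries left out.

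Laminins moved in both directions. Laminins are three-chain proteins of basement membranes. LAMB1 (beta 1 chain, chromosome 7) had 212 and 199.8 CPM in the double modulation, against 360.4 and 443 CPM in the control (-0.96 ± 0.14, adjusted p = 1.96e-07), and LAMA5 (alpha 5 chain) fell by 0.49 on the log2 scale. LAMB3 (beta 3 chain) had 679.7 and 765 CPM against 490.0 and 507 CPM (0.53 ± 0.12, adjusted p = 0.00238), and LAMB2 (beta 2 chain) rose by 0.47 ± 0.13. Of 10 tested collagen genes 1 fell and the other 9 did not pass, 3 of them with values above 0 (COL7A1 0.33 ± 0.17, COL12A1 0.22 ± 0.18 and COL6A3 0.09 ± 0.26). The one that fell, COL13A1, a transmembrane collagen, had 250.5 and 310.0 CPM against 379 and 482 CPM (-0.63 ± 0.13, adjusted p = 0.00122). COLGALT2, a collagen galactosyltransferase on chromosome 1, had 61.0 and 52.7 CPM against 116 and 136 CPM (-1.13 ± 0.21, adjusted p = 0.000103), and the lysyl hydroxylase PLOD3 (chromosome 7) and the peroxidase PXDN fell by 0.61 and 0.53 on the log2 scale. Against the same controls, log2 fold changes in the knockdown alone were -1.11 (LAMB1), 0.52 (LAMB3), -0.52 (COL13A1) and -0.65 (COLGALT2). With the construct alone they lay between -0.19 (COL13A1) and 0.08 (LAMB3). Of 32 tested matrix genes 3 fell and 2 rose, and of 16 tested matrix-modifying enzymes 3 fell and 0 rose. Leaving out single libraries, 2 to 7 of the 9 changed matrix genes passed, the fewest without replicate 2 of the control.

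Among proteases and their inhibitors, 4 fell and 3 rose. CTSD, the lysosomal protease cathepsin D, had 3819 and 3276 CPM in the double modulation, against 4705 and 4857 CPM in the control (-0.43 ± 0.10, adjusted p = 0.00307). The urokinase gene PLAU and the protease inhibitor SPINT2 fell by 0.44 and 0.45 on the log2 scale, and both lie outside chromosome 7. TIMP3, a matrix-bound inhibitor of metalloproteinases, had 1242 and 1240.1 CPM against 936 and 885 CPM (0.45 ± 0.11, adjusted p = 0.00778), and the cathepsin CTSC rose by 0.48 ± 0.12. LXN, a carboxypeptidase inhibitor, had 27 and 14 reads in the double modulation and 2 and 5 reads in the control (2.11 ± 0.52, adjusted p = 0.00978), and its size is poorly fixed at these counts. Without replicate 2 of the control 0 of these 7 genes passed.

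Receptors, ligands and signalling genes included the lowest log2 fold change of all. S100A4, a small calcium sensor associated with metastasis, had 256 and 248 CPM in the double modulation, against 807 and 834 CPM in the control (-1.70 ± 0.13, adjusted p = 9.77e-25). No other changed gene had as low an adjusted p. GPRC5C, an orphan receptor, had 34.3 and 27.2 CPM against 97.7 and 100.0 CPM (-1.65 ± 0.24, adjusted p = 3.98e-07), and IGFBP1 (chromosome 7), a secreted binder of insulin-like growth factors, had 40.7 and 40.0 CPM against 116 and 102 CPM (-1.43 ± 0.23, adjusted p = 2.77e-06). In each of these genes replicates differed little and the groups were far apart. SEMA3C, a secreted semaphorin on chromosome 7, had 149 and 145 CPM against 256 and 261 CPM (-0.81 ± 0.16, adjusted p = 0.000248). The pseudokinase PTK7, which acts in planar polarity and Wnt signalling at the cell surface, went the other way, with 106 and 87.9 CPM in the double modulation and 35.4 and 35.6 CPM in the control (1.47 ± 0.24, adjusted p = 8.67e-06). Against the same controls, log2 fold changes in the knockdown alone were -1.26 (S100A4), -1.53 (GPRC5C), -1.28 (IGFBP1), -0.48 (SEMA3C) and 1.34 (PTK7). With the construct alone they lay between -0.43 (IGFBP1) and 0.06 (SEMA3C).

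ROR2, a receptor tyrosine kinase for Wnt5a, had 8 and 12 reads in the double modulation (8.56 and 19.2 CPM), against 40 and 25 reads in the control (67.4 and 42.4 CPM), and a log2 fold change of -2.08 ± 0.36, adjusted p = 3.4e-05. Its relative ROR1 fell by 0.97 ± 0.27. The knockdown alone had 37.3 and 97.9 CPM of ROR2 and the construct alone 65.7 and 62.9 CPM, so both libraries of the double modulation lay below all 6 others. In the guide by construct interaction, the construct effect in tRNA-Ile-GAU cells minus that in eGFP cells, 5 of 8143 genes passed (0.0614%), and ROR2 was the one of them among the 157 (-2.59 ± 0.45, adjusted p = 0.000356). HHIPL1, a secreted relative of the hedgehog-binding protein HHIP, had 1 and 3 reads in the double modulation and 12 and 16 reads in the control (-3.11 ± 0.65, adjusted p = 0.00123). ROR2, HHIPL1, the organic cation transporter SLC22A2 and the translation initiation helicase EIF4A1 had footprints but 0 total RNA reads in all 8 RNA libraries, and 22 of the 8143 tested genes were of this kind. MDK (the growth factor midkine), the insulin signalling adaptor IRS1, the hepatocyte growth factor receptor MET (chromosome 7), PHLDA2 and the 14-3-3 protein YWHAG (chromosome 7) fell, with log2 fold changes from -1.82 (MDK) to -0.46 (YWHAG), and the adaptor CRKL and the small GTPase RASD1 rose (0.82 ± 0.23 and 0.85 ± 0.24). Of 27 tested genes of the Wnt signalling list 3 fell and 1 rose (PTK7), with a median of -0.19. The 3 were ROR1, ROR2 and HHIPL1, which the list holds although it is a relative of a hedgehog-binding protein. Of the 15 changed signalling genes 6 to 9 passed with single libraries left out.

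**Figure D3:**
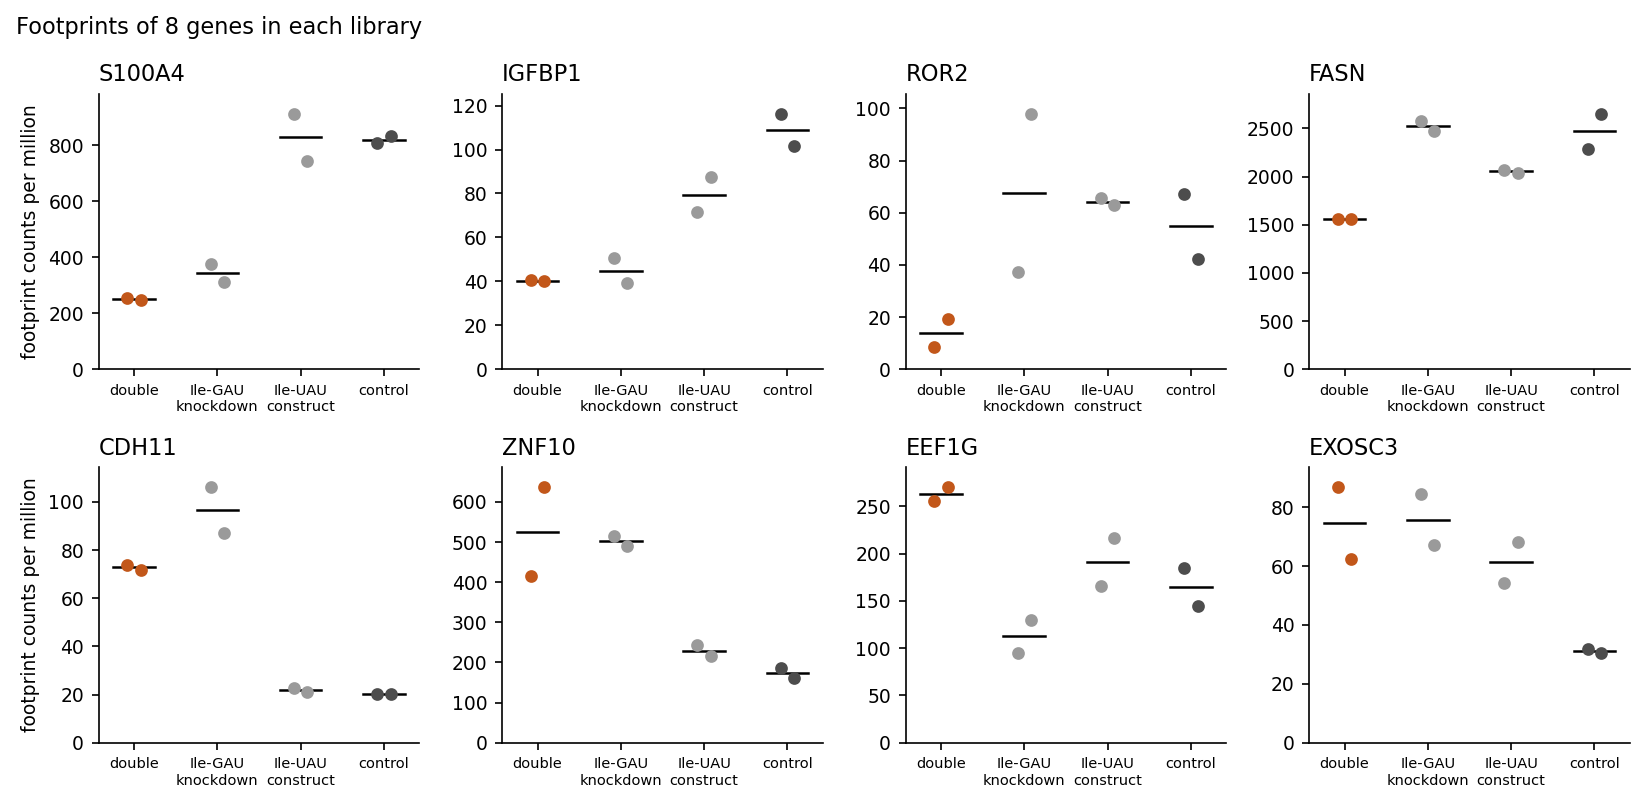
Footprint level in CPM of 8 changed genes in each library (points) and the mean of the 2 libraries (lines), for the double modulation, the knockdown alone, the construct alone and the control. S100A4, IGFBP1, CDH11 and ZNF10 have levels in the knockdown alone near those of the double modulation, whereas ROR2 and FASN are lowest in the double modulation.

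All 13 changed genes of the endoplasmic reticulum, Golgi and traffic fell, 9 of them on chromosome 7. SUMF2, a relative of the sulfatase-modifying enzyme, had 126 and 117 CPM in the double modulation, against 219 and 237 CPM in the control (-0.90 ± 0.16, adjusted p = 5.93e-05). ESYT2, which tethers the endoplasmic reticulum to the plasma membrane, had 293 and 278 CPM against 461 and 487 CPM (-0.73 ± 0.13, adjusted p = 4.42e-05). SEC61G, a subunit of the channel through which secreted proteins enter, had 166 and 158 CPM against 264 and 269.6 CPM (-0.72 ± 0.15, adjusted p = 0.00134), and the membrane-bound transcription factor CREB3L2 had 83.5 and 76.7 CPM against 148 and 148 CPM (-0.87 ± 0.19, adjusted p = 0.00166). All 4 lie on chromosome 7, and their groups were well apart. BCAP29, SYPL1, the KDEL receptor KDELR2, the disulfide isomerase PDIA4 and the calcium-binding protein CALU are on the same chromosome, with log2 fold changes from -0.73 (BCAP29) to -0.40 (CALU). The fallen genes elsewhere were GOLIM4, KDELC2, the mucin-type glycosyltransferase GALNT2 and ARL6IP5, from -0.74 (GOLIM4) to -0.58 (ARL6IP5). Total RNA was below 0 for all 13, with a median of -0.47. Of the wider list for endoplasmic reticulum folding and the unfolded protein response 2 of 34 fell and 0 rose, with a median of -0.08. Of 42 tested genes of the vesicle traffic list 1 fell and 0 rose, with a median of 0.01, 21 above and 21 below 0. The 13 calls were 2 without replicate 2 of the control and at most 9 without another library.

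Folding, turnover and lysosome genes had the same make-up. TAX1BP1, an autophagy receptor, had 177 and 155 CPM in the double modulation against 285 and 259 CPM in the control (-0.70 ± 0.15, adjusted p = 0.00141), the small heat shock protein HSPB1 had 258 and 214 CPM against 350.2 and 354 CPM (-0.56 ± 0.14, adjusted p = 0.00818), and the lysosomal glucuronidase GUSB had 77.1 and 71.9 CPM against 149.9 and 114 CPM (-0.81 ± 0.20, adjusted p = 0.00846). These, the ubiquitin ligase SMURF1, the Kelch protein KBTBD2, the cyclophilin PPIA and the signalosome subunit COPS6 are on chromosome 7. Off it, the co-chaperone BAG3 fell by 0.49 on the log2 scale. The chaperonin subunit CCT4 rose, with 1157 and 1136 CPM against 894 and 775 CPM (0.46 ± 0.11, adjusted p = 0.00604), as did the HSP40 co-chaperone DNAJA1 (0.49 ± 0.13). Of 33 tested proteasome genes none passed, against 1.93% of all tested genes, so a list of this size could hold none by that share alone. Of the 10 calls, 2 to 6 held with single libraries left out, the fewest without replicate 1 of the control.

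The translation machinery moved in both directions. EEF1G, the gamma subunit of the elongation factor that delivers tRNA to the ribosome, had 256 and 270.1 CPM in the double modulation, against 185 and 144 CPM in the control (0.67 ± 0.16, adjusted p = 0.00477). The knockdown alone had 95.2 and 129.7 CPM, below both control libraries. RPS3, a protein of the small subunit, had 812 and 975 CPM against 679 and 617 CPM (0.46 ± 0.11, adjusted p = 0.0102), and RPS4X and the paralogous initiation helicases EIF4A1 and EIF4A2 rose by 0.42 to 0.59 on the log2 scale. EEF1A2, the tissue-restricted form of the factor that carries tRNA, fell, with 58.9 and 79.9 CPM against 111 and 151 CPM (-0.95 ± 0.20, adjusted p = 0.00141). RPL19, a protein of the large subunit, fell as well (215 and 237 CPM against 350.2 and 346 CPM, -0.63 ± 0.14, adjusted p = 0.00212), as did RPL36 and the mitochondrial ribosome factor MALSU1 (chromosome 7). Of 65 tested cytosolic ribosomal protein genes 2 rose and 2 fell, with a median of -0.02, and of 43 translation factors 3 rose and 0 fell, with a median of 0.15. Over all tested genes 1.93% passed, so lists of this size hold few calls by that share alone. Of 27 tested aminoacyl-tRNA synthetase and partner genes none passed, with a median of 0.12, and IARS, which charges isoleucine tRNAs in the cytosol, had a value of 0.13 ± 0.12. Without replicate 2 of the control 0 of the 9 changed translation genes passed, and reads of ribosomal protein genes and their many pseudogenes cannot all be placed.

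Of 11 changed genes of transcription and chromatin regulation 8 rose. ZNF10, a KRAB zinc finger repressor on chromosome 12, had 416 and 636 CPM in the double modulation, against 185 and 161 CPM in the control (1.58 ± 0.15, adjusted p = 1.55e-17). The knockdown alone had 514 and 489 CPM and the construct alone 243 and 217 CPM. CRISPRi repressors often carry the KRAB domain of ZNF10, the repressor used here is not given in the sources used here, and reads of such a construct and of the gene cannot be told apart. ETS1, a transcription factor of the ETS family, had 258 and 279.7 CPM against 195 and 161 CPM (0.59 ± 0.15, adjusted p = 0.0142), and TAF7, a subunit of the general factor TFIID, had 224 and 268 CPM against 170.1 and 154 CPM (0.59 ± 0.16, adjusted p = 0.0204). The clock repressor NR1D2, MCRS1, the methyltransferase SMYD3, the epithelial factor EHF and SETD5 rose by 0.78 to 0.96 on the log2 scale. REPIN1 and FOXK1, both on chromosome 7, fell (-0.98 ± 0.27 and -0.76 ± 0.21). Of these 11 calls 1, ZNF10, held without replicate 2 of the control, and at most 5 without another library.

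The cytoskeleton was split evenly. KRT81, a hair keratin, had 739 and 770.2 CPM in the double modulation, against 448 and 468 CPM in the control (0.72 ± 0.12, adjusted p = 8.67e-06), and the actin bundling protein PLS3 had 703 and 841 CPM against 524 and 495 CPM (0.59 ± 0.12, adjusted p = 0.000426). The actin gene ACTG1 had the smallest change of all called genes (0.34 ± 0.10). TUBB6, ARAP1, the formin DIAPH2 and IFT172, a cargo carrier of cilia with 42 and 16 reads in the double modulation and 8 and 8 reads in the control, rose by 0.66 to 1.44. MARCKSL1, which binds actin, had 183 and 166 CPM against 283 and 288 CPM (-0.70 ± 0.15, adjusted p = 0.00141), and MZT2B, a partner of the microtubule-nucleating gamma-tubulin ring, had 10 and 16 reads against 32 and 24 reads (-1.49 ± 0.35, adjusted p = 0.00625). Against the same controls, log2 fold changes in the knockdown alone were 0.77 (KRT81), 0.44 (PLS3), -0.25 (MARCKSL1) and -1.07 (MZT2B). With the construct alone they were 0.35, 0.18, -0.12 and -0.41, in that order. The dynein chains DYNLL1 and DYNC1H1 and EPS8L2 fell in the double modulation, and so did ANLN and the nuclear envelope protein SUN1 on chromosome 7. Of the 14 calls, 2 held without replicate 2 of the control and at most 10 without another library.

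Smaller groups complete the account. In RNA processing, EXOSC3, a subunit of the RNA exosome, had 86.7 and 62.3 CPM in the double modulation against 32.0 and 30.5 CPM in the control (1.29 ± 0.27, adjusted p = 0.00106), while LSM8 (chromosome 7), a subunit of the nuclear Lsm ring, had 22.5 and 30.4 CPM against 60.6 and 56.0 CPM (-1.17 ± 0.30, adjusted p = 0.0117). RSRC2 fell, as did TBRG4 and the RNase P subunit POP7 on chromosome 7, and the splicing factor PLRG1 rose. Of the 4 fallen genes of RNA processing 3 are thus on chromosome 7. In DNA replication and repair, the helicase subunit MCM7 (chromosome 7) had 528 and 588 CPM against 847 and 831 CPM (-0.59 ± 0.11, adjusted p = 0.000279), and the clamp loader subunit RFC4 and WRNIP1 rose (0.72 ± 0.19 and 0.81 ± 0.23). Among transporters, the chloride channel protein CLIC4 rose, with 278 and 235 CPM against 149.9 and 164 CPM (0.72 ± 0.15, adjusted p = 0.00159), and SLC2A6, a member of the glucose transporter family, the drug exporter ABCC3, SLC12A4, SLC22A2 and SLC4A2 (chromosome 7) fell by 0.50 to 1.54 on the log2 scale. With single libraries left out, 0 to 3 of the 6 calls in RNA processing, 1 to 2 of the 3 in replication and repair and 1 to 2 of the 6 among transporters held.

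Of the 7 other metabolic and mitochondrial genes that fell, 5 are on chromosome 7. ALDH3A1, an aldehyde dehydrogenase on chromosome 17, had 33.2 and 38.4 CPM in the double modulation, against 101 and 72.9 CPM in the control (-1.30 ± 0.25, adjusted p = 0.000258). NDUFB2, a subunit of respiratory complex I on chromosome 7, had 49.2 and 49.5 CPM against 103 and 96.7 CPM (-1.01 ± 0.22, adjusted p = 0.00212), and UQCR11, a subunit of complex III on chromosome 19, had 99.6 and 101 CPM against 157 and 185 CPM (-0.77 ± 0.18, adjusted p = 0.00477). The groups did not overlap in any of these genes. PON2, a paraoxonase on chromosome 7, had 5 and 1 reads against 15 and 13 reads (-2.57 ± 0.60, adjusted p = 0.0052), and GSTK1, FIS1 and OGDH on the same chromosome fell by 0.52 to 0.93. MDH1, MAT2A, TXNIP and PPAT, the enzyme that commits to purine synthesis, rose by 0.44 to 1.12. Of 62 tested nuclear-encoded genes of oxidative phosphorylation 1 fell and 0 rose, with a median of -0.08, near the 1.4% fallen and 0.528% risen of all tested genes. Leaving out single libraries, 2 to 6 of these 11 calls held.

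The fall on chromosome 7 was spread over its genes and not only over those that passed. Of its 371 tested genes 330 were below 0, with a median log2 fold change of -0.40, and the 327 that did not pass had a median of -0.35. The medians in 8 windows of 20 Mb along the chromosome lay between -0.46 and -0.34, against -0.06 to 0.09 over the other chromosomes. Each library, set against the mean of all 8, had a chromosome 7 median of -0.19 and -0.17 in the double modulation, -0.17 and -0.16 in the knockdown alone, 0.18 and 0.18 with the construct alone, and 0.21 and 0.19 in the control. With chromosome 7 genes scaled to their own median, IGFBP1, LAMB1 and PON2 stayed lower and the other 41 of the 44 did not pass, while HNRNPA2B1, ZNF786, ASNS, ARPC1A, VSTM2A and NAMPT were higher than the rest of the chromosome. Relative to the whole library, these 6 genes had log2 fold changes between 0.13 (HNRNPA2B1) and 0.97 (VSTM2A) and did not pass. Functions whose fallen genes lie mainly on chromosome 7, such as endoplasmic reticulum traffic and turnover, therefore cannot be told apart from this shared shift of the chromosome. When the fit was made without the genes of chromosome 7, 31 others rose and 67 fell, and 98 of the 113 changed genes on other chromosomes passed, 10 of 10 lipid genes and 11 of 13 histone genes among them.

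**Figure D4:**
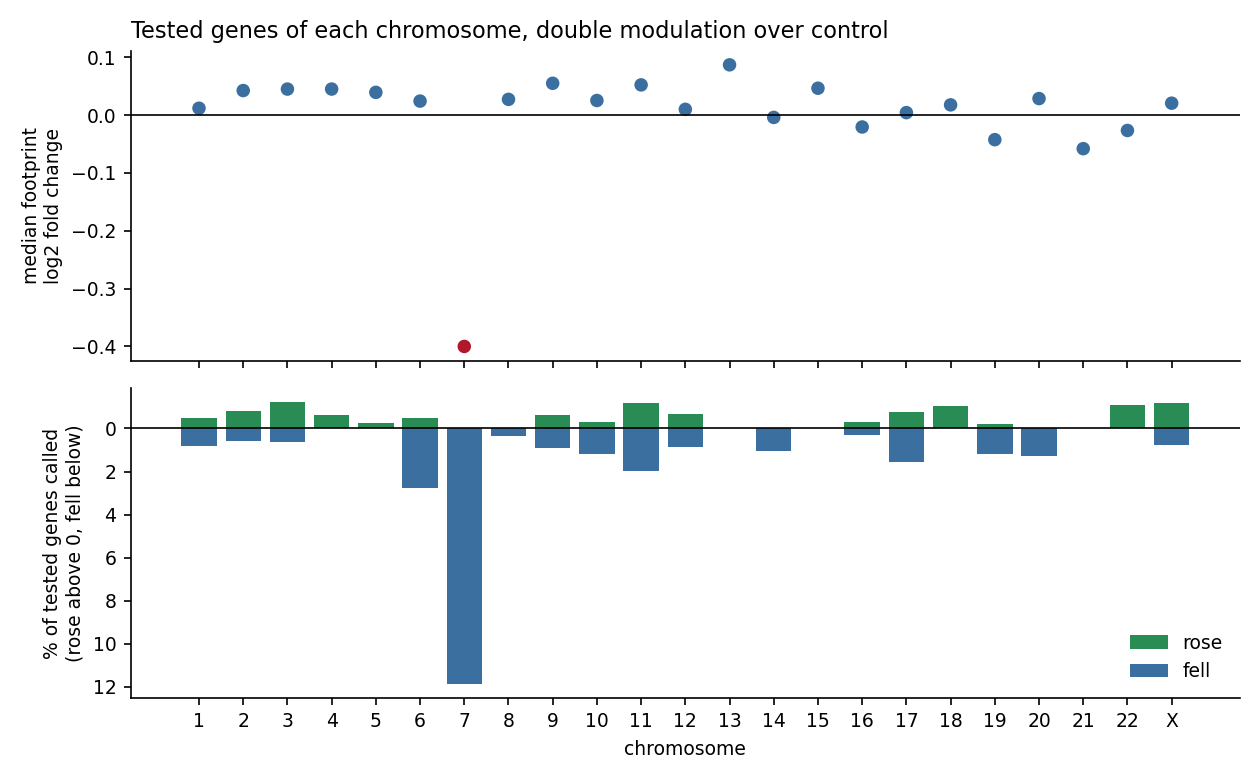
Upper plot: median log2 fold change of footprints, double modulation over control, over the tested genes of each chromosome. Lower plot: percent of the tested genes that rose (above 0) and fell (below 0). Chromosome 7 stands at -0.40 with 11.9% of its genes fallen, and the other chromosomes lie between -0.06 and 0.09.

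Total RNA gave few calls of its own. Of 11720 genes tested in total RNA 8 passed (0.0683%), and 893 had an unadjusted p under 0.05 (7.62%). The count of 8 was 0 without either control library, 293 without replicate 1 of the double modulation and 1854 without its replicate 2. Of the 150 changed genes that could be tested in RNA, 5 passed, CDH11, LAMB1, SEMA3C and ZNF10 among them, in the same direction as their footprints. Without passing the threshold, RNA values mostly shared the sign of the footprints: 42 of 44 fallen genes on chromosome 7 were below 0 in RNA (median -0.45), 51 of 66 fallen genes elsewhere were below 0 (median -0.23), and 39 of 40 risen genes were above 0 (median 0.32). Over all 8012 genes tested in both assays, 43.9% were below 0 in RNA and the median was 0.03. Of the 367 genes of chromosome 7 among them, 332 were below 0 in RNA (90.5%, median -0.36). The 323 that had not passed in footprints had 290 below 0 and a median of -0.35. The share among fallen genes of chromosome 7 thus lay near that of the whole chromosome. The RNA libraries of the double modulation differed from each other: for the fallen genes on other chromosomes the RNA median was -0.54 without its replicate 1 and -0.10 without its replicate 2.

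In translational efficiency, the footprint difference beyond that in RNA, 0 of 8012 genes passed by edgeR (0% of tested genes) and 335 had an unadjusted p under 0.05 (4.18%). Without replicate 2 of the double modulation 506 genes passed, and 4 passed without its replicate 1. The medians of the changed genes in this contrast were -0.26 for those fallen on chromosome 7, -0.52 for those fallen elsewhere and 0.33 for the risen ones. These genes were chosen on their footprints, so these medians are a description. Among the changed genes the lowest unadjusted p belonged to RFC4, whose footprints rose while its RNA did not (RNA -0.22 ± 0.12; translational efficiency 0.91 ± 0.21, adjusted p = 0.927), and next came RPL19 (-0.68 ± 0.18, adjusted p = 0.927). Whether the falls on and off chromosome 7 differ in how far RNA accounts for them was not tested.

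**Figure D5:**
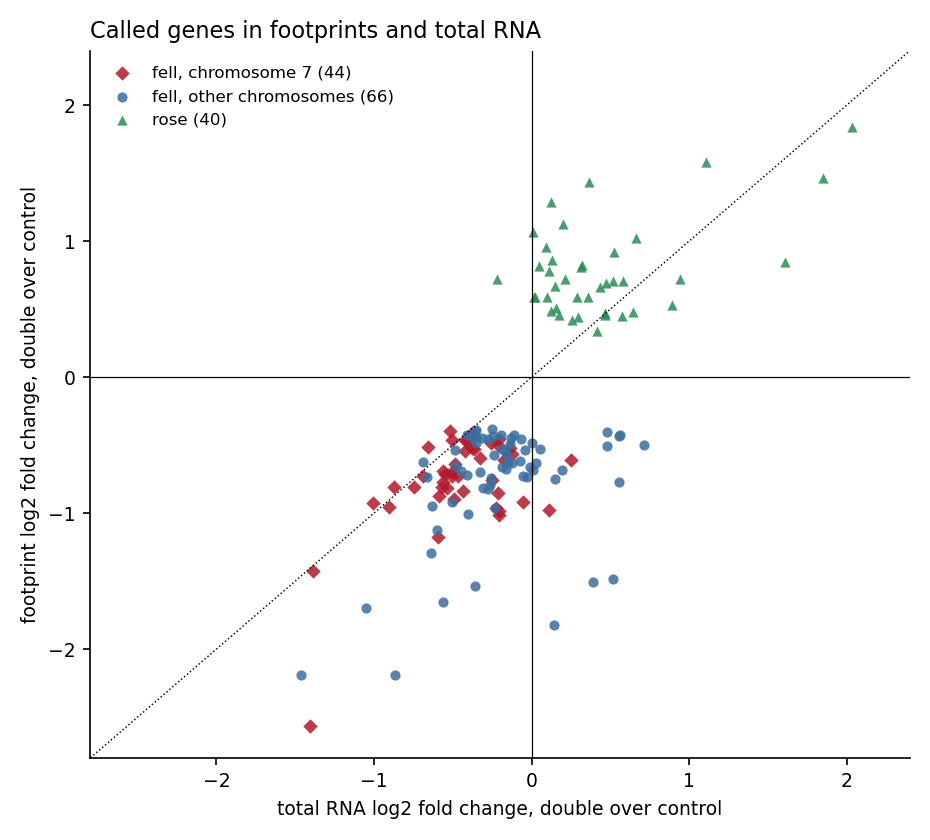
Log2 fold change of footprints against that of total RNA, double modulation over control, for the 150 changed genes tested in both. Diamonds are fallen genes on chromosome 7, circles fallen genes on other chromosomes, triangles risen genes, and the dotted line marks equal values. Most diamonds lie left of 0 in RNA (42 of 44), while the circles reach further right. Of all chromosome 7 genes tested in both assays, 332 of 367 were below 0 in RNA (not drawn).

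The calls differ in how firmly they stand. Of the 157 genes, 18 passed without any 1 library, and 7 of them are on chromosome 7. Among them were FASN, SCD, LAMB1, COLGALT2, ITGB4, CDH11, PODXL, KRT81, S100A4, GPRC5C, PTK7, IGFBP1, SEMA3C, SUMF2, ESYT2, ZNF10 and MCM7. Without replicate 2 of the control 35 genes passed in all, 32 of them among the 157. Just inside the threshold lay POP7, HIST1H2BM and HIST1H2BO (adjusted p = 0.0485 to 0.0488), and just outside it DNAAF5, SFN and DPM1 (0.0503 to 0.0514).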

How the data were processed

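Footprints (RPF) and total RNA of MDA-MB-231 cells were deposited by the authors as counts of reads on each gene, not normalized. The submitters' processing notes list STAR 2.5.2a, cutadapt 1.17 and HTSeq, and the genome build hg38; the settings, the annotation and the counting of strand are not given in the sources used here. The 5 summary lines per file were removed from sizes and tests, and a gene that a footprint file does not list counted 0. Names and chromosomes came from RefSeq tables (GRCh38.p14), where 23758 of 26485 symbols are current, 1562 older and 1165 unmatched and without a position; promoters were found for 127 of the 157 changed genes.

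Groups followed the labels, 2 libraries each. The filter on low counts was filterByExpr by group. It asks for about 10 reads, scaled to library size, in at least 2 of the 8 libraries of an assay, and 15 in total. Genes low in a compared group, such as HHIPL1 (1 and 3 reads in the double modulation), thus entered through other groups. Scaling was by TMM, and genes were tested with edgeR 4.0.16 (R 4.3.3) by the quasi-likelihood test. The fit used the 8 libraries of an assay with group means (4 residual degrees of freedom). Benjamini-Hochberg adjustment ran over all tested genes, at 0.05. CPM use TMM-scaled library sizes; log2 fold changes are double modulation minus control with the model's standard error (SE). Translational efficiency was an assay by condition interaction over 16 libraries. The biological coefficient of variation was 6.71% in footprints and 14.3% in total RNA. The tests were tested on simulated data with known changes before use. Counts limit precision for genes of few reads, and errors cover the spread between libraries only.

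The comparison, the 50 gene lists and the rule for named genes were chosen with earlier results of these data known, and the 15 functions were assigned after the calls were seen. Named with values were, in each direction, on and off chromosome 7, the 10 genes with the lowest adjusted p, the 5 largest changes in each direction and up to 4 genes per function by adjusted p (65 genes); others are given by range or as members of a list, and values of a few further genes stand beside these and were chosen after their values were seen. Alternatives were RLE scaling, no filter, DESeq2 1.42.0, 4 libraries in the fit, thinning to 358340 counts, a replicate block, chromosome 7 left out and each library left out; scaling chromosome 7 to its own median and the interaction were added after the data were seen. Same-numbered replicates of the double modulation and the control did not deviate together (correlation 0.03 in footprints and 0.07 in total RNA); over all pairs of groups the range in total RNA was -0.42 to 0.36. A few genes are counted in the totals but are not reported here by name.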

Additional observations from a re-analysis of the deposited data

Results flagged for a closer look

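ROR2 stood out for a difference between groups. The effect of the tRNA-Ile-UAU construct on its footprints differed between tRNA-Ile-GAU cells and eGFP cells by -2.59 on the log2 scale (edgeR's interaction test, adjusted p = 0.000356). The double modulation had 8 and 12 reads, the knockdown alone 31 and 80, the construct alone 23 and 36 and the control 40 and 25. The 2 libraries of the knockdown alone lay furthest apart. Neither they nor those of the construct alone were left out in turn, so how far the value rests on them was not tested. ROR2 had 0 reads in total RNA. With single libraries of the double modulation or the control left out the value lay between -3.17 and -2.03, and it did not pass without replicate 2 of the control (-2.30, adjusted p = 0.0628).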

How the results depend on the processing

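The count of 157 changed genes was 156 with RLE scaling, 127 with the 4 compared libraries alone, 126 without a filter on low counts and 115 with chromosome 7 scaled to its own median. DESeq2 called 53 and left 70 of the 157 without an adjusted p, and the count was 69 with libraries thinned to the shallowest, 98 with chromosome 7 left out, and 35 to 133 with single libraries left out. The lowest count came without replicate 2 of the control. Of the 157, 64 passed after thinning and 53 by DESeq2, and 13 passed in each of 10 alternatives other than those that treat chromosome 7 apart. PODNL1 changed sign without replicate 2 of the double modulation (-0.27; 1.60 without its replicate 1), and no other of the 157 did under the alternatives that tested it. The labels number the replicates without pairing them, and same-numbered footprint libraries did not deviate together (correlations from -0.04 to 0.06; -0.42 to 0.36 in total RNA); a replicate block gave 209 changed footprint genes, the 157 included, 1 gene in total RNA and 0 in translational efficiency.

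The 8 calls in total RNA were 0 with the 4 compared libraries alone, 4 with chromosome 7 left out, 34 by DESeq2, 185 without a filter and 0 to 1854 with single libraries left out. The highest number, 1854, came without replicate 2 of the double modulation. Calls in translational efficiency ran from 0 to 506 with single libraries left out, and the 506 also came without that replicate. The cause was not tested. In a fit without 1 library, the lone library of that group is assumed to vary like the other groups. Depth limits genes of few reads: thinning took 6 of the 157 under the filter on low counts.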

Other observations

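Several lists with at most 1 call leaned to positive values in footprints of the double modulation against the control. Of 41 tested mitosis genes 31 were above 0, with a median log2 fold change of 0.13, 0 rose and 1 fell (ANLN, chromosome 7). Of 40 nuclear transport genes 31 were above 0, with a median of 0.11 and 0 called. Of 45 genes of ubiquitin ligases and the COP9 signalosome 33 were above 0, with a median of 0.06, and 1 fell (COPS6, chromosome 7). Of 19 genes of the integrated stress response and amino acid synthesis 14 were above 0, with a median of 0.20 and 0 called. Over all 8143 tested genes the median was 0.01 and 4148 were above 0. Lists of endocytosis and lysosome (25 of 35 below 0, median -0.18) and of secreted growth factors and IGF binding (23 of 33 below 0, median -0.18) leaned the other way. These are descriptions, and no test of a list was run.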
